A study of Arabidopsis thaliana with 24 samples.

Results

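Roots of the hyl1 mutant of Arabidopsis thaliana were compared with Col0 wild-type roots in the line that expresses a tagged ribosomal protein from the ACR4 promoter. In the series, HF-RPL18, a ribosomal protein L18 with a His-FLAG tag, is made from 1 of 6 promoters, and tagged ribosomes with their RNA are pulled down with anti-FLAG M2 gel from whole roots. The hyl1 ACR4 group holds 2 libraries of Columbia-0 hyl1 mutant plants with the pACR4::HF:RPL18 transgene, and the Col0 ACR4 group holds 2 libraries of Columbia-0 plants with the same transgene. Those 4 were chosen out of 24 libraries by the line and genotype in their labels, and all 23219 of 33602 genes that passed a count filter were compared. Every plant of the series carries a transgene of this kind, so no group is untransformed, and the labels name neither the hyl1 allele nor the number of independent transgenic lines. Plants were sampled 6 days after they were put in light, at 22 °C, with about 20 plates per sample. The labels do not say whether replicates came from separate sowings, so p-values reflect only how far these samples differ, possibly for technical reasons.

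HYL1 binds double-stranded RNA and helps DCL1 cut microRNAs (miRNAs) from their primary transcripts (pri-miRNAs). A plant miRNA pairs along most of its length with a target mRNA, which is then cut by AGO1 or translated less. ACR4 is a receptor-like kinase known for restraining divisions of the columella stem cells in the root tip, and its promoter is used to mark the columella and root cap. The root cap covers the tip, senses gravity, and is renewed by division on the inside and by shedding and programmed cell death on the outside. The comparison asks which ribosome-bound transcripts differ in hyl1 in the cells in which this promoter is active, and whether they differ from the effect in the other lines.

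Target sites and mature miRNAs of pairs whose targets changed are shown first, since they show the pairing by which a miRNA meets these targets. They were read from the RefSeq assembly TAIR10.1, each 5′ to 3′. Capitals mark bases 2 to 8 of the miRNA (its seed) and the bases of the mRNA that lie opposite them. The first pairs belong to targets that rose and the last 2 to targets that fell.
miR159a: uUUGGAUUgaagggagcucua
MYB33 site: tggagctcccttcATTCCAAt
miR319c: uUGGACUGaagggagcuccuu
TCP4 site: gaggggtccccttCAGTCCAg
miR166a-3p: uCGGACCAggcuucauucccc
ATHB-15 site: ctggaatgaagccTGGTCCGg
miR395a: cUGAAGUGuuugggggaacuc
SULTR2;1 site: aagttctcccaaaCACTTCAa
miR169d: uGAGCCAAggaugacuugccg
NF-YA2 site: aggcaaatcatctTTGGCTCa
miR399a: uGCCAAAGgagauuugcccug
PHO2 site: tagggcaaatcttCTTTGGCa
miR824-5p: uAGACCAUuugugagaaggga
AGL16 site: tctcttctcacaaATGGTCTa
miR160a-5p: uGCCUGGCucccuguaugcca
ARF16 site: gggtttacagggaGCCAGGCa
miR393a-5p: uCCAAAGGgaucgcauugaucc
GRH1 site: gagaccatgcgatcCCTTTGGa
On TAIR10.1, the sites of MYB33 (chr5:1839579-1839599, plus strand), TCP4 (chr3:5063300-5063320, plus), SULTR2;1 (chr5:3193268-3193288, plus), ARF16 (chr4:14704141-14704161, minus) and GRH1 (chr4:1405341-1405362, minus) lie in coding sequence. The ATHB-15 site also lies in coding sequence and spans a splice junction (chr1:19412976-19413085, minus). The sites of NF-YA2 (chr3:1676806-1676826, minus) and AGL16 (chr3:21180537-21180557, plus) lie in the 3′ UTR, and the PHO2 site (chr2:14282106-14282126, minus) lies in the 5′ UTR. The seed that miR165 and miR166 share was fully paired in each of the 5 listed targets of that family. The ARF16 and GRH1 sites, whose transcripts fell, were also fully paired opposite the seed, and the MYB33 site had 1 base there that was not. A site is the best match found and a description only.

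Total counts were 6526801 and 6628411 in the hyl1 libraries and 8589721 and 8193056 in the Col0 libraries. Levels below are CPM, counts scaled by TMM-normalized library size, and folds are log2 hyl1 over Col0 with their standard error (SE) from edgeR's quasi-likelihood fit over all 24 libraries. A gene was called at a Benjamini-Hochberg adjusted p under 0.05 over all 23219 genes. Across genes, log2 CPM correlated at 0.963 between the hyl1 replicates, at 0.972 between the Col0 replicates and at 0.883 to 0.893 between genotypes, where genes are not independent replicates. HYL1 itself had 4.86 and 1.12 CPM in hyl1 ACR4, against 8.49 and 11.6 CPM in Col0 ACR4. Both hyl1 libraries lay below both Col0 libraries, and the log2 fold change of −1.73 (SE 0.83) was not called (adjusted p = 0.198, edgeR). It was called with the 4 ACR4 libraries fitted alone and without the WER libraries (adjusted p = 0.0174 and 0.0171), and the estimate was −3.14 without hyl1 replicate 1 and −1.05 without hyl1 replicate 2. RPL18, which encodes an L18 protein, had 2904 and 2623 CPM in hyl1 and 2164 and 2369 CPM in Col0 and was not called. Reads of the native transcript and of the HF-RPL18 transgene may be counted together there. RPL18 had 15330 to 18630 CPM in the 35S line and 1212 to 5572 CPM in all other lines.

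The label of the line was checked on 13 columella and root cap genes, which did not point one way in hyl1 ACR4. This list and the others below were made with earlier results of these data known, so they are no independent check. All 13 summed to 1277 and 1187 CPM in hyl1 ACR4, against 776 and 808 CPM in Col0 ACR4, and to 366 to 378 CPM in hyl1 and 384 to 461 CPM in Col0 of the 35S line, which samples all root cells. CR4, the gene of the promoter, made up 1164 and 1041 CPM of that sum in hyl1 ACR4. CR4, PIN3 and PIN7, which are discussed below, were set apart after their values were seen, and the other 10 genes summed to 71.9 and 92.9 CPM in hyl1 ACR4, against 602 and 606 CPM in Col0 ACR4. In the 35S line the sum of the 10 was 274 to 294 CPM in hyl1 and 288 to 376 CPM in Col0, and in the SHR line, labelled for the stele, it was 48.3 to 58.7 CPM in hyl1 and 44.3 to 59.6 CPM in Col0. In the WER line, labelled for the epidermis, it was 132.8 to 137.8 CPM in hyl1 and 448.7 to 544.5 CPM in Col0. Neither the high level in Col0 nor the fall in hyl1 was thus particular to the ACR4 line. A separate list of 6 genes of root cap cell death summed to 155 to 159 CPM in hyl1 ACR4, against 611 to 645 CPM in Col0 ACR4, next to 208 to 268 CPM over the 4 libraries of the 35S line. In the WER line this list summed to 156.7 to 288.7 CPM in hyl1 and 255.4 to 261.8 CPM in Col0. On each of these sums Col0 ACR4 lay above the 35S and WER lines. Lists of other layers were high in Col0 ACR4 too, so the sums do not show a sample of root cap alone. The epidermis and root hair list summed to 1772 to 2132 CPM in Col0 ACR4. In Col0 it was 496.8 to 586.2 CPM in the 35S line and 2448 to 2614 CPM in the WER line. The cortex list summed to 1033 to 1085 CPM in Col0 ACR4, against 299.2 to 304.8 CPM in Col0 35S. In hyl1 ACR4 only CR4, PIN3 and PIN7 were set apart, and the 10 other genes and the cell death list lay below their level in whole roots. CR4 cannot decide the label there, since reads of any CR4 sequence carried by the transgene are counted with it. Fewer root cap cells and less RNA per cell cannot be told apart in such samples.

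Root cap NAC regulators and wall enzymes were among the genes that fell in hyl1, and the gene of the promoter itself rose. Of the 13 listed genes, 6 were lower, 4 were higher and 3 were not called, where 14.7% of all tested genes were called, 6.29% higher and 8.42% lower. The median log2 fold change of the list was −1.84, and that of all tested genes was −0.02. With any 1 of the 4 libraries left out, 1 to 4 of the list were called lower and 1 to 3 higher. In those fits the lone library of a genotype is assumed to vary like the other groups.

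The NAC transcription factors that drive root cap maturation were among the lower genes. SMB (SOMBRERO), which sets the lateral root cap fate, had 5.73 and 9.74 CPM in hyl1, against 41.2 and 48.1 CPM in Col0 (log2 fold change −2.53, SE 0.68, adjusted p = 0.0157, edgeR). Its relatives NAC015 and NAC070, which act in the release of root cap cells, had 9.38 and 12.2 CPM and 4.34 and 6.00 CPM in hyl1, against 109 and 113 CPM and 69.0 and 73.2 CPM in Col0. Their log2 fold changes were −3.36 (SE 0.85) and −3.78 (SE 0.93). No hyl1 library reached a Col0 library for any of the 3. The call of SMB was lost with any 1 of the 4 libraries left out, with adjusted p up to 0.170, and those of NAC015 and NAC070 without either hyl1 library, with adjusted p up to 0.119 and 0.111.

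Cell wall enzymes of cap cell shedding also fell. AT1G65570, a pectin lyase-like protein, had 9.21 and 8.81 CPM in hyl1, against 165.7 and 166.8 CPM in Col0 (log2 fold change −4.20, SE 0.74, adjusted p = 0.00084, edgeR), and was called in all 14 alternative fits. The cellulase gene CEL5 had 21.9 and 27.0 CPM in hyl1, against 164 and 148 CPM in Col0, a log2 fold change of −2.68 (SE 0.57). Its call was lost without hyl1 replicate 1 (adjusted p = 0.0579). CEL3, a second cellulase, had 2.26 and 3.18 CPM in hyl1, against 29.6 and 30.9 CPM in Col0. Its call was lost with any 1 of the 4 libraries left out. FEZ, a NAC factor that drives the formative divisions of cap stem cells, had 2.09 and 2.06 CPM in hyl1 against 6.84 and 3.18 CPM in Col0 and was not called.

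**Figure D1:**
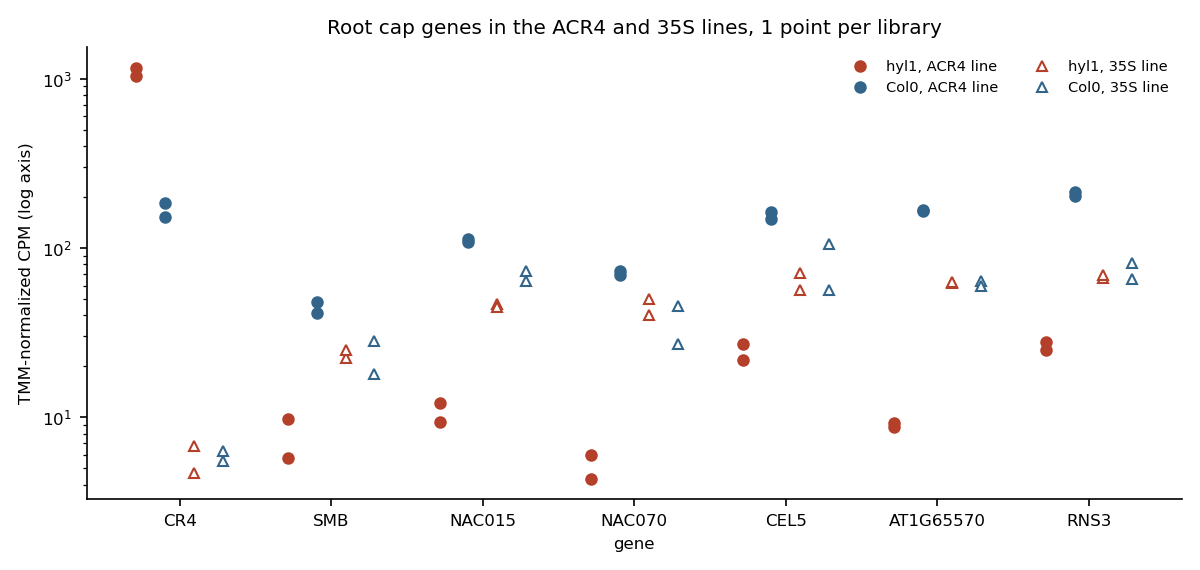
Levels of 7 root cap genes (TMM-normalized CPM, log axis) in hyl1 and Col0 libraries of the ACR4 line (filled circles) and the 35S line (open triangles), 1 point per library. Apart from CR4, which is higher in hyl1 ACR4 at 1164 and 1041 CPM, each gene lies lower in hyl1 ACR4 than in Col0 ACR4, with both 35S genotypes between them.

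Genes of developmental cell death in the outer root cap showed the same direction. Of 6 tested genes, 4 were lower and none higher, with a list median of −1.70, where 14.7% of all tested genes were called in either direction. With any 1 library left out, 1 to 4 were called lower. The S-like ribonuclease gene RNS3 had 28.0 and 25.1 CPM in hyl1, against 202 and 213 CPM in Col0 (log2 fold change −2.97, SE 0.58, adjusted p = 0.00191, edgeR). AT4G04460, a saposin-like aspartyl protease, had 43.4 and 45.5 CPM in hyl1, against 193 and 212 CPM in Col0, and the carboxypeptidase gene scpl48 had 64.3 and 70.3 CPM against 156 and 155 CPM. AT2G14095, an uncharacterized protein, had 3.301 and 6.18 CPM in hyl1, against 33.6 and 36.4 CPM in Col0. All 4 also differed from the mean hyl1 effect of the 5 other lines, by −1.49 for scpl48 to −2.94 for AT2G14095 on the log2 scale, a difference that 5.17% of all tested genes showed (3.02% lower). Without hyl1 replicate 1 the calls of AT4G04460, scpl48 and AT2G14095 were lost, and without hyl1 replicate 2 that of AT4G04460, with adjusted p up to 0.0867. RNS3 was called in all 14 alternative fits. The nuclease gene BFN1 had 8.86 and 8.43 CPM in hyl1 and 15.8 and 17.1 CPM in Col0 and was not called.

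CR4, the RefSeq symbol of ACR4, moved the other way. It had 1164 and 1041 CPM in hyl1 ACR4, against 153 and 183 CPM in Col0 ACR4 (log2 fold change 2.71, SE 0.28, adjusted p = 1.47e-05, edgeR). In the 20 libraries of the other lines it had 3.11 to 9.53 CPM, so both ACR4 genotypes lay far above every other group. The ACR4 effect exceeded the mean of the other lines by 2.80 (SE 0.32, adjusted p = 0.0004). The promoter of the transgene comes from this gene, and reads of the native transcript and of any CR4 sequence carried by the transgene are counted together here. The auxin efflux carriers PIN3 and PIN7, which redistribute auxin in the columella but are also made in the stele, had 21.0 and 25.9 CPM and 19.6 and 27.9 CPM in hyl1, against 10.7 and 8.06 CPM and 10.02 and 10.7 CPM in Col0. Both were called higher, at adjusted p of 0.0494 and 0.0219, and PIN3 lost its call with any 1 of the 4 libraries left out (adjusted p up to 0.294). PIN7 lost its call without hyl1 replicate 2 or either Col0 library (adjusted p up to 0.230). AT1G72490, an uncharacterized protein, also rose, with 13.2 and 14.6 CPM in hyl1 and 2.95 and 3.91 CPM in Col0. Its call was lost without hyl1 replicate 2 or Col0 replicate 1 (adjusted p up to 0.102).

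Most Casparian strip and suberin genes of the endodermis rose in the hyl1 pull-down, parts of the stele and ground tissue lists did, and 8 of 22 epidermis genes fell. Of 12 tested Casparian strip genes of the endodermis, 9 were higher and none lower, with a median of 2.13, and of 9 suberin genes 7 were higher and none lower, with a median of 2.05. Over all tested genes 6.29% were higher and 8.42% lower. With any 1 library left out, 3 to 4 Casparian strip genes and 2 to 3 suberin genes were called, and without the WER libraries 11 and 8 were. The summed level of the Casparian strip list was 383 and 391 CPM in hyl1, against 132 and 117 CPM in Col0. None of the 13 root cap genes was at 0 in a hyl1 library. In the 35S line the Casparian strip sum was 231.1 to 271 CPM in hyl1 and 219 to 266 CPM in Col0. In the WER line it was 534.9 to 598.6 CPM in hyl1 and 113.6 to 124.2 CPM in Col0. The Casparian strip median was 2.49 in WER, 1.19 in CO2, 0.505 in SCR, 0.11 in SHR and −0.08 in 35S, and the suberin median was 2.81 in WER. The difference from the mean of the other lines was called for none of the Casparian strip genes and 1 suberin gene.

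Among these genes, the scaffold gene CASP1 had 45.3 and 54.5 CPM in hyl1, against 8.60 and 11.4 CPM in Col0 (log2 fold change 2.32, SE 0.48). ESB1, needed for lignin to be laid down in the strip, had 27.8 and 39.0 CPM in hyl1, against 4.36 and 4.76 CPM in Col0. The peroxidase gene PER64 had 37.9 and 39.2 CPM in hyl1, against 6.60 and 8.67 CPM in Col0. Of the suberin genes, the fatty acid hydroxylase gene CYP86A1 had 87.0 and 79.4 CPM in hyl1, against 17.6 and 19.1 CPM in Col0, and the feruloyl transferase gene RWP1 had 68.5 and 74.9 CPM against 21.6 and 12.9 CPM. All hyl1 values lay above all Col0 values for these 5 genes. PER64 lost its call with any 1 of the 4 libraries left out (adjusted p up to 0.126), and CASP1 and CYP86A1 lost theirs without Col0 replicate 1 (0.0509 and 0.0618). Of 6 regulators of ground tissue fate 2 were called higher (33.3%), next to 6.29% of all tested genes. These were JKD, at 9.38 and 11.4 CPM in hyl1 against 4.95 and 3.18 CPM in Col0, and AT3G13840, a GRAS factor at 6.43 and 4.12 CPM against 0 and 0.366 CPM. At most 1 of them was called when a library was dropped.

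Parts of the stele lists rose, where 6.29% of all tested genes were higher and 8.42% lower. Of 12 phloem genes 3 were higher (APL, SEOR1 and SEOa), of 12 xylem genes 6 were higher and 1 lower, and of 12 genes of vascular patterning and transport 4 were higher. Dropping 1 library gave counts of 1 to 2, 1 to 4 and 3 to 4 higher. The vascular regulator BHLH32 (TMO5) had 55.9 and 54.9 CPM in hyl1, against 8.49 and 12.2 CPM in Col0 (log2 fold change 2.42, SE 0.33, adjusted p = 0.000116, edgeR). Its partner LHW had 55.4 and 54.5 CPM in hyl1, against 21.2 and 25.5 CPM in Col0. The cambium receptor gene PXY had 26.4 and 34.5 CPM in hyl1, against 7.07 and 7.94 CPM in Col0, and the phosphate exporter gene PHO1 had 143 and 147 CPM against 59.8 and 40.0 CPM. The summed level of the vascular patterning list was 374 and 390 CPM in hyl1 ACR4, against 200 and 191 CPM in Col0 ACR4. In the 35S line it was 474 to 496 CPM in hyl1 and 488 to 499 CPM in Col0. The medians of the phloem, xylem and vascular patterning lists were 1.674, 1.14 and 1.163 in ACR4 and 2.501, 1.335 and 2.063 in WER. In 35S, SHR, SCR and CO2 these medians lay between −0.832 and 0.693. A rise of these lists was thus not particular to ACR4. The phloem filament genes SEOR1 and SEOa had 14.2 and 14.8 CPM and 14.6 and 24.7 CPM in hyl1, against 3.3 and 3.67 CPM and 4.24 and 4.52 CPM in Col0. CTL2, a chitinase-like gene of secondary walls, was the xylem list member that fell, to 16.8 and 20.0 CPM in hyl1, against 44.8 and 59.6 CPM in Col0. The secondary wall genes that rose included CESA4, at 43.6 and 36.5 CPM in hyl1 against 15.2 and 13.4 CPM in Col0, and the protease gene XCP1, at 35.8 and 48.0 CPM against 15.6 and 13.4 CPM. APL lost its call with any 1 of the 4 libraries left out, SEOR1 without either Col0 library, SEOa without hyl1 replicate 2 and PHO1 without Col0 replicate 2, with adjusted p up to 0.232, 0.0711, 0.0584 and 0.0541. CESA4 lost its call without hyl1 replicate 1 or Col0 replicate 2 (adjusted p up to 0.0656).

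In the epidermis and root hair list, 8 of 22 genes were lower and none higher, with a median of −0.48, where 8.42% of all tested genes were lower and 6.29% higher. After dropping 1 library 4 to 6 were called. EIR1, the auxin efflux carrier PIN2 of the epidermis and lateral root cap, had 34.0 and 23.2 CPM in hyl1, against 323.3 and 288 CPM in Col0 (log2 fold change −3.41, SE 0.51, adjusted p = 0.00024, edgeR). The phosphate transporter gene PHT1;1 had 153 and 181 CPM in hyl1, against 1081 and 803 CPM in Col0. The iron uptake genes IRT1 and FRO2 had 37.2 and 43.3 CPM and 18.2 and 19.7 CPM in hyl1, against 182 and 184 CPM and 74.1 and 65.0 CPM in Col0. The fate regulators MYB66 (WEREWOLF), GL2 and CPC were also lower, by −1.85, −1.58 and −2.13 on the log2 scale. The last of the 8 was PRP1, a proline-rich wall protein gene of root hairs, at 3.996 and 0.562 CPM in hyl1 against 17.9 and 8.06 CPM in Col0 (log2 fold change −2.49, SE 0.62), whose call was lost without hyl1 replicate 2 or Col0 replicate 1 (adjusted p up to 0.150). Other genes of root hair growth were not called, with EXPA7 at 26.6 and 21.0 CPM in hyl1 against 21.3 and 23.2 CPM in Col0, and COW1 at 24.2 and 19.1 CPM against 22.4 and 19.4 CPM. The median of the epidermis list was −1.361 in SCR, −0.848 in CO2, −0.328 in WER, −0.278 in 35S and −0.274 in SHR. Its sum was 545.4 to 594.1 CPM in hyl1 ACR4 and 1772 to 2132 CPM in Col0 ACR4. In WER it was 997.1 to 1032 CPM in hyl1 and 2448 to 2614 CPM in Col0. A fall of this list was thus not particular to ACR4. Of 6 cortex genes, 3 were lower. AT4G12510 and AT4G12520, close copies that may share reads, fell by 0.77 and 0.74 on the log2 scale, and AT1G62510 had 0.174 and 0 CPM in hyl1 against 1.53 and 1.71 CPM in Col0. At most 1 cortex gene was called when a library was dropped. MYB66 and CPC lost their calls whichever of the 4 libraries was dropped, GL2 without either hyl1 library or Col0 replicate 1, and IRT1 without hyl1 replicate 1 (adjusted p up to 0.250, 0.231, 0.0975 and 0.0590), and MYB66 was also not called under RLE scaling.

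Of 9 auxin carrier genes, EIR1 and AUX1 were lower and PIN3 and PIN7 higher. The auxin influx carrier AUX1, strong in the root cap and epidermis, had 55.6 and 71.4 CPM in hyl1, against 204 and 178 CPM in Col0 (log2 fold change −1.59, SE 0.31). Of 14 auxin-induced genes 3 were lower and none higher, next to 8.42% lower and 6.29% higher of all tested genes. IAA1 was the lowest, at 7.47 and 6.93 CPM in hyl1, against 52.4 and 59.9 CPM in Col0 (log2 fold change −2.96, SE 0.42, adjusted p = 0.00016, edgeR), and IAA19 and IAA2 fell by 1.53 and 0.95. With any 1 library left out 1 of the 3 was called, IAA19 and IAA2 losing their calls each time. None of 13 cell division genes was called by edgeR, at an unadjusted p under 0.05 either, or by DESeq2, and their median was 0.04. In the stem cell niche list, AIL6 (PLT3) and KNAT5 were lower, at log2 fold changes of −1.46 and −1.38, and AGL42 was higher, at 3.25. KNAT5 and AGL42 lost their calls whichever of the 4 libraries was dropped.

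Further lists held few calls, where 6.29% of all tested genes were higher and 8.42% lower. Of 13 jasmonate and touch genes OPR3 and TCH3 were lower, at −1.39 and −2.40, and neither held with any 1 library left out. None of 8 tested abscisic acid and cold genes was called by edgeR (2 at an unadjusted p under 0.05) or DESeq2, with a median of 0.01, and of 12 tested nuclear photosynthesis genes only RBCS1A was, at 33.2 and 36.9 CPM in hyl1 against 5.66 and 5.38 CPM in Col0. Neither of 2 tested LITTLE ZIPPER genes, which HD-ZIP III factors induce, was called by edgeR (1 gene had an unadjusted p under 0.05 and DESeq2 called 1), and their median was 0.61.

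**Figure D2:**
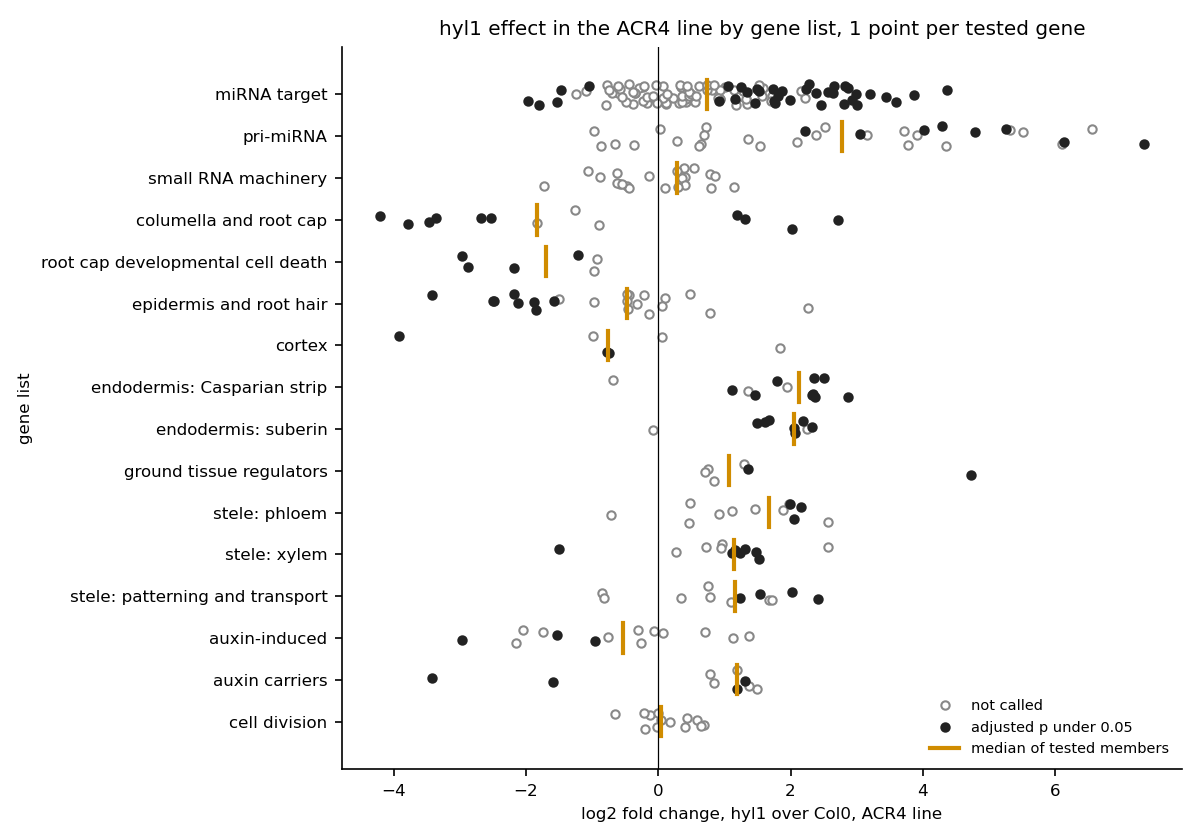
Log2 fold change of hyl1 over Col0 in the ACR4 line (horizontal axis) for each tested gene of 16 lists, with called genes filled and the median of each list as a bar. Root cap, cell death and epidermis lists reach below −2, Casparian strip and suberin lists centre near 2, and cell division genes stay near 0.

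More miRNA targets rose than fell in hyl1. Of 126 listed targets of 34 families, 111 were tested, of which 32 were higher (28.8%, next to 6.29% of all tested genes), 5 were lower (4.50%, next to 8.42%) and 74 were not called. Their median log2 fold change was 0.73, against −0.02 for all tested genes, and both hyl1 libraries lay above both Col0 libraries for 61 of 111. Over all tested genes the groups did not overlap in 66.1%, with hyl1 higher in 31.8% and lower in 34.4%. With any 1 library left out, 22 to 29 targets were called higher and 3 to 4 lower, and without the WER libraries 45 and 7. Called targets came from 20 of 33 tested families, 16 with a higher target and 5 with a lower one.

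The miR159 targets MYB33 and MYB65 and the miR319 targets TCP4 and TCP3, which encode transcription factors of growth and differentiation, rose in ACR4, and their estimated effects were above 0 in each of the other 5 lines. MYB33 had 49.5 and 44.8 CPM in hyl1, against 4.24 and 4.40 CPM in Col0 (log2 fold change 3.44, SE 0.28, adjusted p = 1.57e-06, edgeR). MYB65 had 28.8 and 29.0 CPM in hyl1, against 1.77 and 4.52 CPM in Col0. In the 35S line the effects on MYB33 and MYB65 were 3.45 and 2.80. TCP4 had 37.9 and 32.4 CPM in hyl1, against 5.54 and 3.298 CPM in Col0, and TCP3 had 13.7 and 12.4 CPM against 2.12 and 1.59 CPM. TCP3 lost its call without Col0 replicate 2 (adjusted p = 0.0558). The MADS-box gene AGL16, the miR824 target, had 84.96 and 68.6 CPM in hyl1, against 13.6 and 14.4 CPM in Col0.

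All 5 class III homeodomain leucine zipper genes, the targets of miR165 and miR166 that pattern the vascular tissue, were higher. Over all tested genes 6.29% were. ATHB-15 had 120.4 and 127 CPM in hyl1, against 17.2 and 16.5 CPM in Col0 (log2 fold change 2.87, SE 0.26, adjusted p = 2.89e-06, edgeR). PHB had 60.5 and 72.5 CPM in hyl1, against 13.1 and 15.03 CPM in Col0, and PHV had 29.5 and 34.8 CPM against 6.84 and 6.35 CPM. REV and HB-8 rose by 1.49 and 1.17 on the log2 scale, and HB-8 lost its call without hyl1 replicate 1 or either Col0 library (adjusted p up to 0.0776). The family median was 2.24 in ACR4, next to 2.204 in the WER line and 0.53 in the 35S line, and the difference from the mean of the 5 other lines was called for ATHB-15 (1.58), PHV (1.33) and PHB (1.08) but not for REV or HB-8. These genes are known from the stele of the root, and the summed level of the vascular patterning list given above was higher in the same libraries. The part of that shift in the effect on the family was not tested. REV, for example, had 52.8 and 51.1 CPM in hyl1 ACR4 and 16.1 and 20.9 CPM in Col0 ACR4, next to 73.0 and 40.3 CPM in hyl1 and 41.5 and 50.5 CPM in Col0 of the 35S line.

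The auxin response factors ETT and ARF4, silenced by small RNAs from TAS3 transcripts that miR390 cuts, also rose. ARF4 had 42.0 and 42.0 CPM in hyl1, against 4.95 and 8.31 CPM in Col0 (log2 fold change 2.66, SE 0.38), and ETT had 20.9 and 15.4 CPM against 2.00 and 3.79 CPM. The ARF4 effect exceeded the mean of the other lines by 1.58 (SE 0.41, adjusted p = 0.0303, edgeR), though in WER alone it was 3.01. ARF2, the other listed target, had 159 and 167 CPM in hyl1 and 135 and 125 CPM in Col0 and was not called.

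Several targets of miRNA families linked to nutrients were higher. SULTR2;1, a low-affinity sulfate transporter of the vascular tissue and the target of miR395, had 81.7 and 95.7 CPM in hyl1, against 5.19 and 3.42 CPM in Col0 (log2 fold change 4.36, SE 0.37, adjusted p = 1.69e-06, edgeR). The ATP sulfurylase genes APS4 and APS1 of the same family rose by 1.74 and 1.05. PHO2, which encodes an E2 enzyme that holds phosphate uptake down and is the target of miR399, had 266 and 288 CPM in hyl1, against 76.8 and 80.4 CPM in Col0. Its effect of 1.82 exceeded the mean of the other lines by 1.25 (SE 0.23, adjusted p = 0.00731), though in WER alone it was 2.53. The copper-linked miR408 targets ARPN, LAC13 and LAC3 rose by 2.82, 2.56 and 2.38, and the miR397 targets IRX12 and LAC17, laccases of lignin formation, by 1.52 and 1.34. LAC13 had 21.4 and 21.4 CPM in hyl1, against 3.54 and 3.67 CPM in Col0. ARPN lost its call without hyl1 replicate 1 or either Col0 library, LAC17 likewise, and IRX12 and APS1 without Col0 replicate 2 (adjusted p up to 0.0938, 0.171, 0.0601 and 0.0533). The sulfate uptake gene SULTR1;2, which is no miR395 target, had 85.7 and 97.4 CPM in hyl1, against 842 and 601 CPM in Col0. The sulfate assimilation gene APR1 had 121 and 142 CPM in hyl1, against 49.9 and 31.2 CPM in Col0, and the other 11 genes of the 13 in the sulfur starvation list were not called. With 1 gene higher and 1 lower (7.69% each), that list lay near the 6.29% and 8.42% of all tested genes.

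Of the miR169 targets, which encode NF-YA subunits of the CCAAT-binding complex, 4 of 7 were higher, next to 6.29% of all tested genes. NF-YA2 had 58.5 and 60.7 CPM in hyl1, against 4.36 and 5.50 CPM in Col0 (log2 fold change 3.59, SE 0.48), and NF-YA3 had 47.8 and 48.3 CPM against 4.24 and 7.70 CPM. NF-YA10 and NF-YA8 rose by 3.86 and 2.93. NF-YA10 lost its call without hyl1 replicate 1 or either Col0 library (adjusted p up to 0.131). Targets within the miRNA pathway rose as well: DCL1, the miR162 target, had 36.3 and 55.8 CPM in hyl1, against 16.1 and 10.99 CPM in Col0, and AGO2, the miR403 target, had 36.3 and 42.3 CPM against 13.6 and 6.11 CPM. DCL1 lost its call without hyl1 replicate 2 or Col0 replicate 2 (adjusted p up to 0.0828). AGO1, the miR168 target, had 115 and 124 CPM in hyl1 and 81.1 and 43.9 CPM in Col0 and was not called. None of 24 further genes of the small RNA machinery, HYL1 included, was called by edgeR (2 at an unadjusted p under 0.05) or by DESeq2, and their median was 0.29. Without the WER libraries 1 of the 24 was called higher and 2 lower.

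The remaining targets that rose were TOE2 of the miR172 family, LCR of the miR394 family, and RPF2 and AT1G63130 of the miR161/miR400 family, at log2 fold changes of 1.46, 0.92, 1.88 and 1.75. RPF2 and AT1G63130 belong to a family of pentatricopeptide repeat genes with close copies that may share reads. RPF2 lost its call with any 1 of the 4 libraries left out, without a filter on low counts and with a replicate block (adjusted p up to 0.299).

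The 5 targets that fell, 4.50% of those tested next to 8.42% of all tested genes, include auxin signalling genes. The auxin response factor ARF16, known for its role in root cap formation, had 23.1 and 24.9 CPM in hyl1, against 105 and 83.7 CPM in Col0 (log2 fold change −1.97, SE 0.38, adjusted p = 0.00172, edgeR). ARF10, a second miR160 target with a role in the cap, had 39.4 and 34.8 CPM in hyl1 and 70.7 and 48.7 CPM in Col0 and was not called, while ARF17 rose by 1.25. ARF17 lost its call with any 1 of the 4 libraries left out (adjusted p up to 0.240). GRH1, the auxin receptor AFB1, had 51.1 and 59.8 CPM in hyl1, against 192 and 129 CPM in Col0, and its effect lay below the mean of the other lines by −1.31 (SE 0.31, adjusted p = 0.0207). LAC7 had 164 and 160.4 CPM in hyl1, against 488 and 415 CPM in Col0. NAC080 and IAR3 fell by 1.803 and 1.05 on the log2 scale. In the 35S line the effects on ARF16, GRH1, LAC7, NAC080 and IAR3 were 0.17, 0.23, 0.78, −0.44 and 0.07, and in the WER line they were −2.60, −0.70, −1.38, −1.56 and −0.57. LAC7 lost its call without hyl1 replicate 2 (adjusted p = 0.0534), IAR3 without hyl1 replicate 2 or Col0 replicate 2 (up to 0.137), and NAC080 without either hyl1 library or Col0 replicate 1 (up to 0.101). The sums of the 10 root cap genes and of the cell death list given above were lower in the same libraries, and their part in these falls was not tested.

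The miR156 targets, the SPL genes of phase change, gave no call among 8 tested genes by edgeR (3 at an unadjusted p under 0.05) or by DESeq2, with a median of 1.16. SPL15 and SPL2 had the largest estimates, at 2.22 and 1.72 (adjusted p = 0.114 and 0.171, edgeR). Without the WER libraries, 4 of the 8 were called higher.

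**Figure D3:**
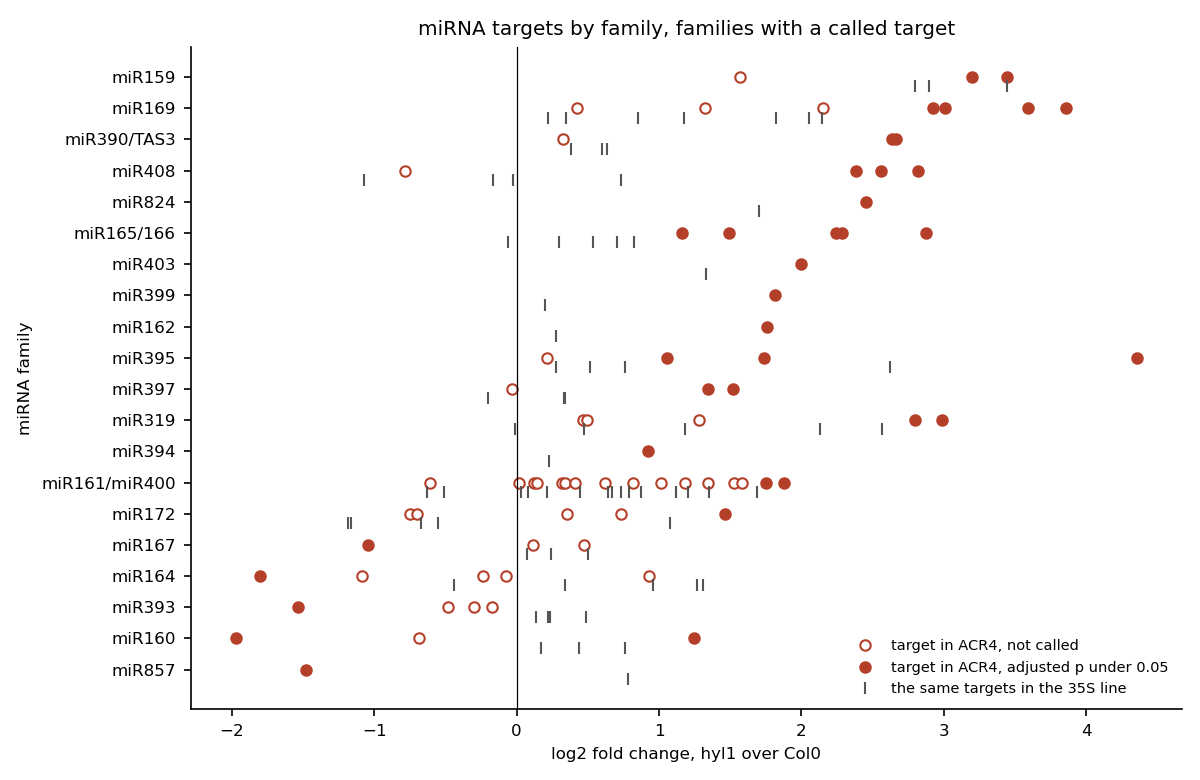
Log2 fold change of hyl1 over Col0 (horizontal axis) for the tested targets of the 20 miRNA families with a called target, in the ACR4 line (circles, filled where called) and in the 35S line (ticks). MYB33 of miR159 lies at 3.44 in ACR4 and 3.45 in 35S, while the median of the miR165 and miR166 family is 2.24 in ACR4 and 0.53 in 35S (and 2.204 in WER, which is not drawn).

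Some transcripts of miRNA genes were higher. Of 178 miRNA genes with a row of counts, 32 passed the filter, of which 8 were higher (25%) and none lower, next to 6.29% and 8.42% of all tested genes. Of the 32, 7 were at 0 in both libraries of a genotype. With any 1 library left out 3 to 5 were called higher, and without the WER libraries 18 were higher and 1 lower. MIR163 had 87.2 and 68.9 CPM in hyl1, against 17.8 and 15.9 CPM in Col0 (log2 fold change 2.21, SE 0.35, adjusted p = 0.000422, edgeR), and MIR824 had 12.2 and 20.8 CPM against 1.77 and 2.199 CPM. MIR398b had 37 and 31 counts in hyl1 against 4 and 2 counts in Col0. MIR160c had 21 and 12 counts in hyl1 and none in Col0, which makes it at least 16.5-fold higher against a floor of 3 counts over the Col0 group, and MIR160a, with 6 and 8 counts, was at least 7.01-fold higher. MIR166b had 13 and 20 counts in hyl1 against 0 and 1 in Col0, and MIR159a had 18 and 6 against 1 and 0. MIR160a, MIR166b and MIR159a lost their calls whichever of the 4 libraries was dropped and MIR160c without hyl1 replicate 1 or either Col0 library and DESeq2 gave no adjusted p for these 4. Such floors cover counting error only, and a miRNA gene that passed the filter through its hyl1 libraries alone had to differ. Of 5 TAS loci, whose transcripts are cut into secondary small RNAs, TAS1C was higher, at 21.7 and 18.9 CPM in hyl1 against 5.78 and 4.03 CPM in Col0. Its call was lost without Col0 replicate 2 (adjusted p = 0.0576).

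Over all tested genes, 3415 genes in all were called, 1460 higher and 1955 lower, and 543 and 505 of these differed by more than 4-fold. The number without 1 of the 4 libraries was 1530 to 1817, and with the 4 ACR4 libraries fitted alone it was 7847. Without hyl1 replicate 1 the calls were 830 higher and 812 lower. The 12 largest rises at a mean log2 CPM of at least 2 included genes of oxidative enzymes. AT1G52820, a 2-oxoglutarate-dependent oxygenase, had 145 and 141 CPM in hyl1, against 0.83 and 1.10 CPM in Col0 (log2 fold change 7.19, SE 0.60, adjusted p = 1.57e-06, edgeR). The cytochrome P450 gene CYP712A1 had 80.4 and 82.1 CPM in hyl1, against 1.41 and 1.10 CPM in Col0. It overlaps AT2G42247, so the 2 may share reads. CYP712A2 and CYP76G1 rose by 5.52 and 4.69. AT1G52820, CYP712A1, AT2G42247 and CYP76G1 are 4 of the 8 genes called higher in each of the 6 lines. The other 4, AT1G15540, AT1G52800, HSD4 and HSD7, lay under that limit on the level and had 1 and 0 or 0 and 1 counts in Col0. AT1G15540 had 252 and 222 counts in hyl1, AT1G52800 had 209 and 190, and HSD4 and HSD7, which had equal counts and may share reads, had 154 and 111. XTH7, a wall-loosening enzyme gene, had 227.2 and 221 CPM in hyl1, against 13.7 and 19.9 CPM in Col0.

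The 12 largest falls at that level included the root myrosinase genes BGLU35 and BGLU34, whose enzymes cleave glucosinolates. BGLU35 had 92.8 and 84.5 CPM in hyl1, against 3329 and 3662 CPM in Col0 (log2 fold change −5.30, SE 0.94, adjusted p = 0.000943, edgeR), and BGLU34 had 87.9 and 82.1 CPM against 3196 and 3340 CPM. As close relatives they may share reads. AT5G35940, a mannose-binding lectin, had 4.52 and 4.31 CPM in hyl1, against 205 and 245 CPM in Col0. The cellulose synthase-like gene CSLB02 had 7.12 and 5.25 CPM in hyl1, against 186 and 173 CPM in Col0, and the peroxidase gene AT5G24070 had 2.95 and 2.44 CPM against 119 and 134 CPM. CYP705A2 had 1.04 and 0.94 CPM in hyl1, against 51.7 and 45.1 CPM in Col0. CYP71A12, a P450 of indole defence compounds, was uneven in Col0, at 1.39 and 1.31 CPM in hyl1 against 118 and 8.80 CPM in Col0. Its call was lost without either hyl1 library or Col0 replicate 1 (adjusted p up to 0.296). In the 35S line the effects on BGLU35, BGLU34, AT5G35940 and CSLB02 were between −0.80 and −0.17. In the WER line they were −2.31, −2.09, −6.75 and −2.50, so that AT5G35940 had a lower estimate there than the −5.67 of ACR4. For AT5G35940 the effect was also −4.01 in SCR, −2.07 in SHR and −1.70 in CO2.

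Among the other lines, the calls in ACR4 overlapped most in number with those in WER, labelled for the epidermis, which was also the line with the most calls. There, 9069 genes were called (39.1%), against 440 in SCR (1.89%), 34 in CO2 (0.146%), 23 in 35S (0.0991%) and 19 in SHR (0.0818%). Of the 1460 genes higher in ACR4, 82.5% were also called higher in WER, which is 32.9% of the genes called higher there and compares with 15.8% of all tested genes. Of the 1955 lower genes, 76.2% were also called lower in WER (27.6% of the genes called lower there), against 23.3% of all tested genes. All 21 genes called higher in the 35S line were also called higher in ACR4, as were 88.6% of those higher in SCR, 90% in CO2 and 83.3% in SHR. Of the genes called lower, 13.2% in SCR and 50% in CO2 were also called lower in ACR4. The comparisons share no library, though they share 1 estimate of the spread. The hyl1 WER replicates correlated at 0.752, the lowest of the 12 groups, and without the WER libraries 6305 genes were called in ACR4.

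The effect in ACR4 differed from the mean of the 5 other lines for 1201 genes, 499 higher (2.15%) and 702 lower (3.02%). Without 1 of the 4 ACR4 libraries the number was 96 to 284, with 86 higher and 56 lower without hyl1 replicate 1 and 14 higher and 104 lower without Col0 replicate 1, and without the WER libraries it was 4885. The gene with the smallest p was AT1G60095, a mannose-binding lectin that is also among the dominant transcripts described below, at 5280 and 5838 CPM in hyl1 against 674 and 739 CPM in Col0 (difference 2.71, SE 0.24, adjusted p = 2.55e-05, edgeR). Its effect was 2.98 in ACR4 and 3.497 in WER, and between −1.31 and 0.38 in the other 4 lines. GDH2, a glutamate dehydrogenase gene, had 218 and 239 CPM in hyl1, against 1017 and 1479 CPM in Col0. Its effect lay below the mean of the other lines by −2.42 (SE 0.25). That effect was −2.45 in ACR4, −1.45 in WER and between 0.10 and 0.61 in 35S, SHR, SCR and CO2. NSP4, which directs glucosinolate breakdown to nitriles, had 178 and 189 CPM in hyl1, against 1131 and 1207 CPM in Col0, and its effect was −2.67 in ACR4 and −2.66 in WER. A difference between ACR4 and WER alone was not tested. The carboxypeptidase gene SCPL34 had 26.6 and 25.7 CPM in hyl1, against 408 and 392 CPM in Col0. The berberine bridge-like genes AT5G44380 and AT1G30730 had 151 and 143 CPM and 7.99 and 4.31 CPM in hyl1, against 977 and 1101 CPM and 85.2 and 99.8 CPM in Col0. The effects on SCPL34, AT5G44380 and AT1G30730 were −3.94, −2.82 and −3.90 in ACR4, and −3.16, −1.74 and −2.48 in WER.

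**Figure D4:**
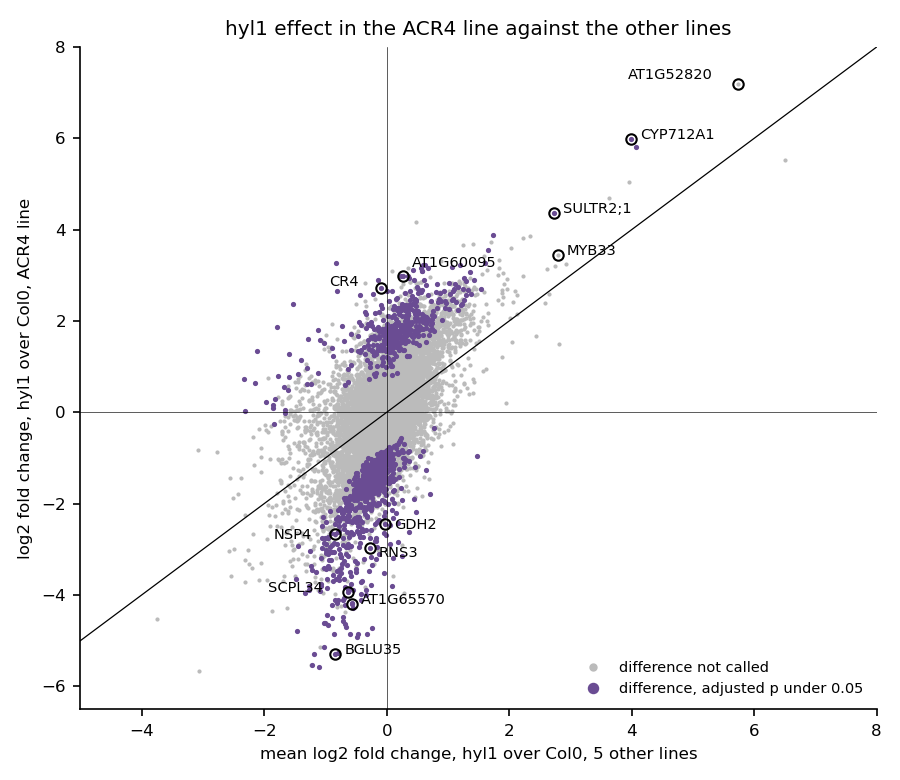
Log2 fold change of hyl1 over Col0 in the ACR4 line (vertical axis) against the mean of the 5 other lines (horizontal axis) for 15872 genes with a mean log2 CPM of at least 2 in ACR4. The line marks equal effects, purple points are the 1154 of these genes whose difference was called, and CR4, at a difference of 2.80, and GDH2, at −2.42, lie far from the line.

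A small set of transcripts took up much of the hyl1 ACR4 libraries, and also of libraries of both genotypes in other lines. The 10 transcripts were chosen for the largest summed gain in share of the 4 ACR4 libraries over the 35S libraries. A low share in the 35S libraries follows from this choice and is no result. The hyl1 ACR4 libraries entered the choice, so their contrast with Col0 ACR4 is not independent of it. They held 33.8% and 37.3% of counts in hyl1 ACR4, against 8.18% and 9.13% in Col0 ACR4 and 0.448% to 1.17% in the 35S libraries. They also held 30.0% and 24.2% in hyl1 WER, against 3.79% and 3.34% in Col0 WER, while in the SCR line the share was lower in hyl1. In the CO2 line they held 31.0% and 30.1% in hyl1 against 30.3% and 31.0% in Col0, and in the SHR line 20.1% and 19.0% against 20.0% and 21.9%. AT5G35200, an ENTH/ANTH domain protein, alone held 18.2% and 14.6% in hyl1 ACR4, against 3.52% and 4.53% in Col0 ACR4. Next came AT1G64880, a ribosomal protein S5 family member, at 4.58% and 3.90% against 0.899% and 1.07%, and PSAT, the phosphoserine aminotransferase of serine synthesis, at 2.76% and 2.19% against 0.627% and 0.616%.

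Of the 8 dominant transcripts from nuclear protein genes, 7 encode a protein with the core of the FLAG epitope (aspartate, tyrosine, lysine, any residue, any residue, aspartate), as do 46 of 20800 tested proteins (0.221%). Among those 46 genes 22 were higher and none lower, where 5.69% of the 20800 were higher and 9.31% lower. Their median was 1.21 in ACR4, 1.43 in WER, −0.64 in SCR, −0.09 in 35S, −0.10 in CO2 and 0.05 in SHR. With 1 library left out 16 to 18 were called higher. An antibody to FLAG was used in the pull-down, and the part of this sequence in the levels was not tested. The 46 include the 7 dominant genes, which were chosen for their share in these ACR4 libraries and were all called higher. Taking the 10 dominant transcripts out before scaling left 1530 genes higher and 1788 lower, with 32 miRNA targets higher and 5 lower. Of the genes with the FLAG core, 16 were then higher and 0 lower.

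**Figure D5:**
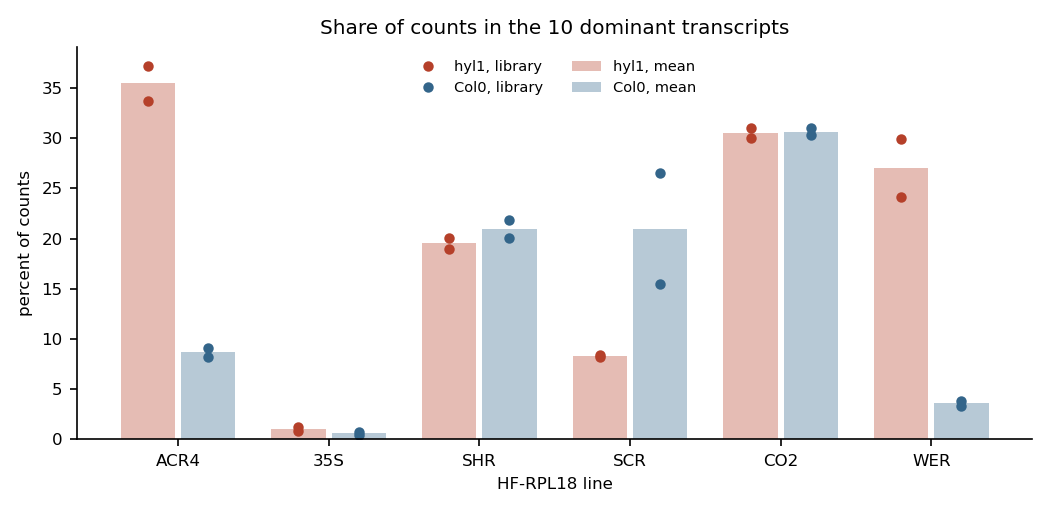
Share of all counts (percent) held by the 10 dominant transcripts in hyl1 and Col0 libraries of each line, with points for libraries and bars for the mean of 2. In ACR4 the hyl1 libraries reach 33.8% and 37.3%, against 8.18% and 9.13% in Col0. The 35S libraries stay at or below 1.17%, which follows from the choice of transcripts by their gain in ACR4 over 35S.

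The other 2 dominant transcripts come from the mitochondrial genome, and organelle transcripts as a group were higher in hyl1. Mitochondrial genes held 5.62% and 15.01% of counts in hyl1, against 2.56% and 2.37% in Col0, and 55 of 145 tested were higher and none lower, where 6.29% of all tested genes were higher and 8.42% lower. Plastid genes held 1.09% and 2.25% in hyl1, against 0.501% and 0.440% in Col0, and 68 of 128 were higher and none lower. The second hyl1 library was the higher one for both, and without it 27 mitochondrial and 34 plastid genes were called. Without Col0 replicate 1 the numbers were 30 and 29, and without Col0 replicate 2 they were 21 and 28. Both hyl1 libraries lay above both Col0 libraries in each share, and the part of these shares in the other results was not tested. Without organelle genes 3256 genes were called, and 32 targets were higher and 5 lower.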

How the data were processed

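RNA from anti-FLAG pull-downs of root ribosomes was sequenced on an Illumina MiSeq, per the labels' protocols. The deposited values are raw read counts per gene, made by the authors with featureCounts from Subread after CASAVA 1.8.2, TopHat2 2.0.11 and Bowtie2 2.2.1.0 on TAIR10, per the submitters' processing notes. Use of strand and of reads with several matches is not given in the sources used here. Overlapping genes and close copies may therefore share reads.

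Groups came from the sample titles. Counts were tested with edgeR 4.0.16 (R 4.3.3): quasi-likelihood F test, 24 libraries in 12 groups, TMM scaling, filterByExpr (minimum count 10, minimum total 15), Benjamini-Hochberg adjustment over 23219 genes, called under 0.05. The contrasts were hyl1 minus Col0 in ACR4, and that difference minus its mean in the 5 other lines. CPM used TMM-scaled totals, which were 6526801 to 8589721 counts per ACR4 library before scaling. DESeq2 1.42.0, RLE scaling, other filters, left-out libraries and a replicate block were alternatives, and the test was checked on simulated data.

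RefSeq TAIR10.1 held 32835 of 33602 identifiers (97.7%). Symbols, products, miRNAs and sites were read from it. Each site is the ungapped stretch of the spliced transcript with the fewest mispairs to a family member.

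The members and the 21 hand-made gene lists, like the added pri-miRNA and TAS lists, were chosen with earlier results of these data known. Genes named are HYL1, RPL18, CR4, the 12 largest rises and falls and 8 smallest p of the difference at a mean log2 CPM of at least 2, up to 5 called genes per list (2 per miRNA family) or the most expressed, and the 10 dominant transcripts. The text names part of these. Other genes, such as further members of a list or family, were named after their values were seen.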

Additional observations from a re-analysis of the deposited data

Results flagged for a closer look

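For 57 of the genes reported, the hyl1 effect in the ACR4 line differed from its mean in the 5 other lines at an adjusted p under 0.05 (edgeR, a test of the difference itself), 30 with a difference above 0 and 27 below 0. Over all tested genes 5.17% did. The mean includes WER, where some of these effects were larger than in ACR4, and a difference from WER alone was not tested. The values below are that difference on the log2 scale, ACR4 minus the other lines, and 96 to 284 genes in all were called when 1 of the 4 ACR4 libraries was left out.

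Of the genes with the smallest p, the difference was 2.71 for AT1G60095, −2.42 for GDH2, 2.80 for CR4, −1.83 for NSP4, −3.30 for SCPL34, −4.12 for AT5G48430, −3.57 for AT1G30730 and −2.64 for AT5G44380. Among the largest rises it was 2.01 for CYP712A1, 1.74 for AT2G42247, 1.62 for SULTR2;1 and 2.15 for AT5G53830. The effects on SULTR2;1 and AT5G53830 were 4.86 and 4.43 in WER, above their 4.36 and 3.88 in ACR4. Those on CYP712A1 and AT2G42247 were 4.44 and 4.96 in WER, below their 5.99 and 5.82 in ACR4. Among the largest falls it was −4.48 for CYP705A2, −4.32 for AT5G24070, −4.46 for BGLU35, −4.11 for AT4G33120, −4.47 for BGLU34, −4.44 for CYP96A8, −4.53 for CSLB02 and −4.25 for AT5G58784.

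Of the miRNA targets, the difference was 1.08 for PHB, 1.33 for PHV, 1.58 for ATHB-15, 1.58 for ARF4, 1.25 for PHO2 and −1.31 for GRH1, and that of the TAS1C locus was 1.73. The sulfate genes APR1 and SULTR1;2 stood at 1.004 and −1.92.

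Of the root cap and cell death genes, the difference was −3.52 for NAC070, −3.64 for AT1G65570, 2.07 for AT1G72490, −2.66 for AT4G04460, −2.69 for RNS3, −2.94 for AT2G14095 and −1.49 for scpl48. Among inner layer genes it was 1.60 for FAR5, 1.82 for JKD, 1.23 for XCP1, 1.48 for PAL1, −1.58 for CTL2, 1.58 for BHLH32, 0.90 for LHW, 1.31 for PHO1 and 1.40 for PXY. Among epidermis and auxin genes it was −1.37 for FRO2, −2.47 for EIR1, −1.72 for PHT1;1 and −2.03 for IAA1.

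Of the dominant transcripts, the difference was 1.86 for AT5G35200, 1.86 for AT1G64880, 2.19 for ATMG01390, 2.10 for ATMG00020, 1.72 for PSAT, 1.78 for FTIP1, 1.52 for AT4G10320 and 1.82 for AT2G17630. The effects on the nuclear genes among these were 3.12 to 3.90 in WER, against 1.66 to 2.34 in ACR4.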

How the results depend on the processing

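In the ACR4 line 3415 genes were called, the difference from the other lines was called for 1201, and 37 miRNA targets were called. The 4 ACR4 libraries fitted alone gave 7847 genes and 59 targets, and leaving out the WER libraries gave 6305 genes and 4885 differences. DESeq2 gave 1992 differences. Without 1 of the 4 ACR4 libraries the counts were 1530 to 1817 genes, 96 to 284 differences and 26 to 32 targets, where the lone library is assumed to vary like the other groups. A fit with the replicate number as a block (replicate block) gave 2590 genes, 502 differences and 34 targets. Deviations of same-numbered ACR4 libraries correlated at −0.06, so the numbers were not taken to pair the libraries. RLE scaling, no filter, a filter of 1 CPM in 4 libraries, and leaving out the dominant transcripts, organelle genes or FLAG core genes kept each count within 1.5 times the main one. The organelle and FLAG core alternatives were chosen after seeing the data. No named gene changed the sign of its estimate, but the balance of calls did turn. Called genes were 1460 higher and 1955 lower, and 830 and 812 without hyl1 replicate 1. Differences were 499 higher and 702 lower, 86 and 56 without hyl1 replicate 1, and 14 and 104 without Col0 replicate 1. The dominant transcripts held 26.9 percentage points more of the counts in hyl1 than in Col0, and 5 transcripts in place of 10 held 23.9 more, and without 1 library the value was 25.1 to 28.6. The cause of these shifts was not tested. Leaving out a library leaves 1 sample in a genotype, and 2 libraries a group limit what can be called.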
